A study of Mus musculus with 13 samples.

Results

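Ventricular-type cardiomyocytes with a high level of Nppa were selected from single-cell RNA sequencing of mouse hearts at 3 embryonic stages (E12.5, E14.5, E16.5) and on postnatal day 3 (P3). A barcode, the tag of one captured cell, was a member when it held at least 2000 unique molecular identifiers (UMIs, one per captured RNA molecule), at least 500 genes and at least 1% mitochondrial UMIs, and when Tnnt2 reached 1500, Myl2 1000 and Nppa 1000 CPM (UMIs of the gene scaled to a common total per barcode). This gave 3191 barcodes, out of 20491 that passed the same Tnnt2 and Myl2 limits, 36651 heart barcodes past the floors and 65098 past them in the whole series. The comparison cells were the 15273 barcodes of the same Tnnt2 and Myl2 gate with Nppa under 300 CPM, called low Nppa here, and 2027 barcodes lay between. All hearts came from wild-type C57Bl/6J mice without any treatment. Each embryonic stage had 2 libraries. P3 had a single matrix whose barcodes end in 1 or 2, and these 2 sets are called wells here. The paper states that batches of each stage were compared by eye and that significant differences were seen at P3 only. The labels do not tie a well to either P3 sample record, so P3 was handled as 1 sample without a test, and its values are given per well or, where so stated, over both wells. The first E16.5 matrix was made from 2 sample records. The sources do not say whether libraries of one stage came from different animals, so the spread behind the p-values may be technical. Where 2 groups of the same library were compared, it is how far their difference varied between libraries of a stage. Where stages were compared within the members, it is the spread between libraries of a stage. Since whole hearts were dissociated, position within the wall was not recorded.

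The members were chosen by their Nppa, Myl2 and Tnnt2 levels, which are therefore given only as a description. The median Nppa of the members was 5298 and 4705 CPM in the E12.5 libraries, then 3027 and 2960 (E14.5) and 3232 and 3471 (E16.5). At P3 it was 4386 CPM in well 1 and 2910 CPM in well 2. The medians of the low-Nppa barcodes ran from 0 to 129 CPM, the last at P3 over both wells. Myl2, the regulatory light chain of ventricular myosin, had medians between 13552 and 18198 CPM in the members. Those of Tnnt2, cardiac troponin T, lay between 3558 and 8634 CPM, the last at P3 over both wells. Barcodes just inside the Nppa limit (1000 to 1250 CPM) numbered 15 to 34 per embryonic library and carried Gja5 at 36.5 to 69.4 CPM. Those just outside it (800 to 1000 CPM) numbered 22 to 45, with Gja5 at 19.0 to 63.0 CPM, and the ranges overlapped.

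As background, trabeculae are the muscular ridges that line the inner face of the embryonic ventricle, and the compact layer is the proliferating outer wall. Trabecular cardiomyocytes are known for natriuretic peptide genes such as Nppa and Nppb, for the fast-conducting gap junction gene Gja5 and for the secreted factors Bmp10 and Slit2. They divide less than compact cells, and part of them later forms the Purkinje network of the ventricular conduction system. Atrial cardiomyocytes also make Nppa at a high level but carry little Myl2.

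Nppa and Nppb are neighbouring genes on chromosome 4, and Bmp10 lies on chromosome 6. Their promoters, from RefSeq (GRCm38.p6), are shown because Nppa defined the members and Nppb and Bmp10 were among the genes that went with it. Each sequence runs from 250 bases before to 50 bases after the transcription start. Capitals mark AGGTGT (letters of T-box factors such as Tbx5), TNAAGTG (letters of Nkx2-5) or AGATAA (letters of Gata4 and related factors), searched on both strands, and the matches shown do not overlap. Nppa lies at chr4:148000472-148000771 on the plus strand, Nppb at chr4:147985650-147985949 on the plus strand and Bmp10 at chr6:87428744-87429043 on the plus strand.
Nppa: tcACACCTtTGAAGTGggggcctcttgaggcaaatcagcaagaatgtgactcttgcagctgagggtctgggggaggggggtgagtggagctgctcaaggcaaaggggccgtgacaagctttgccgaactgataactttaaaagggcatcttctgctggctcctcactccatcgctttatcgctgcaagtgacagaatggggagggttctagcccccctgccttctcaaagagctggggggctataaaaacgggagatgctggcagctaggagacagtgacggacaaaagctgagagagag
Nppb: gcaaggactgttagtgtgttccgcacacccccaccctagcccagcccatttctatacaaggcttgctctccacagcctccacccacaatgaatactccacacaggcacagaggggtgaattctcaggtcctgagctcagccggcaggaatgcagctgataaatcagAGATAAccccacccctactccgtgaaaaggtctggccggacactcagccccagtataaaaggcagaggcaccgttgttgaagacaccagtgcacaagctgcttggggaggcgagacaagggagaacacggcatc
Bmp10: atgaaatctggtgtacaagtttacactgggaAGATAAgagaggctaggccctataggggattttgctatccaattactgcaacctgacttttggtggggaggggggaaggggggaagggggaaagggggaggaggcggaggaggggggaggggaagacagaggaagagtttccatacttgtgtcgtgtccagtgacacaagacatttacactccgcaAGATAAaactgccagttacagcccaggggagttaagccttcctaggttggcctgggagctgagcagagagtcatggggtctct
The Nppa promoter held 1 AGGTGT match on the reverse strand and 1 TNAAGTG match close beside it. The Nppb promoter held 1 AGATAA match and that of Bmp10 held 2. Of 32851 mouse promoters of this length, 13.7% held AGGTGT, 11.5% held TNAAGTG and 11.2% held AGATAA. None of the 3 motifs was found in these windows of Gja5, Slit2, Sema3a or Irx3, and a match is only a description of the letters.

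Among the embryonic stages, the high-Nppa share of the ventricular gate was highest at E12.5. It was 27.8% (95% exact Clopper-Pearson interval 25.6 to 30.2) and 25.9% (24.0 to 27.9) in the E12.5 libraries, with 412 of 1480 and 518 of 2001 barcodes. At E14.5 it was 9.64% (8.53 to 10.9) and 11.04% (9.76 to 12.4), with 247 of 2561 and 243 of 2201 barcodes. At E16.5 it was 9.64% (8.64 to 10.7) and 9.89% (8.86 to 10.996), with 311 of 3227 and 306 of 3094 barcodes. Both E12.5 libraries lay above all 4 later embryonic libraries, while the E14.5 and E16.5 shares overlapped. These shares were not tested, since Nppa chose the members, and the intervals cover counting error only.

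At P3 the share was 19.5% (18.5 to 20.5), with 1154 of 5927 barcodes, but the 2 wells stood apart. In well 1 it was 27.6% (26.1 to 29.1) and in well 2 it was 7.32% (6.30 to 8.44). Well 1 members were also deeper, with a median of 21700.5 UMIs against 11073 in well 2. Which well belongs to which labelled P3 sample was not used here.

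**Figure D1:**
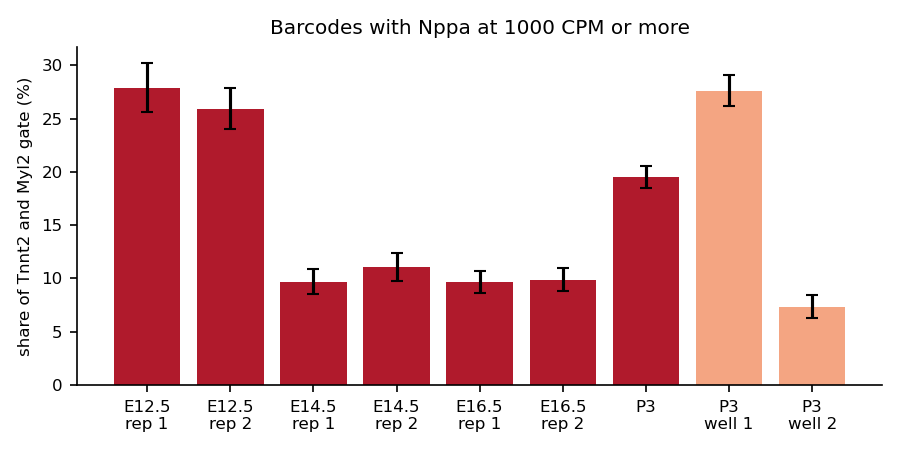
Share of barcodes in the Tnnt2 and Myl2 gate (y axis, percent) whose Nppa reached 1000 CPM, for each heart library (x axis), with 95% exact binomial intervals. The E12.5 libraries stand at 27.8% and 25.9%, the E14.5 and E16.5 libraries between 9.64% and 11.04%, and the P3 wells at 27.6% and 7.32%.

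The share depended on the mitochondrial limit. Members had a higher median mitochondrial share than low-Nppa barcodes at E12.5, at 7.96% against 5.99% and 8.26% against 6.40%. They were also above at E14.5, at 9.92% against 8.34% and 9.27% against 8.18%. At E16.5 they were close, at 10.1% against 10.8% and 11.2% against 11.1%, and at P3 they were below, at 21.3% against 23.8% in well 1 and 20.3% against 23.5% in well 2. With the upper limit that the study states for each stage, the mean E12.5 share was 17.7%, that of E14.5 was 8.58% and that of E16.5 was 10.1%. At P3 this limit left 1524 of 5927 gate barcodes, with shares of 41.7% in well 1 and 13.6% in well 2. The E12.5 share still exceeded the other embryonic shares and lay between those of the P3 wells.

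Depth and stray RNA were compared next. The members held 3647695 to 12471039 UMIs per embryonic library in sum, and their median UMIs per barcode were 14334 to 26762.5, against 14273.5 to 25749 for low-Nppa barcodes. The members' median was the higher one in each library, by most at E16.5 (22101 against 19716 and 16385.5 against 14500). At P3 it was 21700.5 against 18360 in well 1 and 11073 against 10139 in well 2. Free RNA, taken from barcodes with under 100 UMIs, contained Nppa at 848 to 2239 CPM and Myl2 at 11337 to 16672 CPM in the embryonic libraries. It contained Tnnt2 at 2715 to 5650 CPM, more than Nppa in each of them. Among barcodes with Tnnt2 under 300 CPM, 0 to 3 per library reached 1000 CPM of Nppa, at most 0.160%. That Tnnt2 limit itself leaves out barcodes with much free RNA, so this count cannot show how much free Nppa the gated barcodes held. At most 1 member per pair of libraries had a barcode that was also a member elsewhere. Scrublet, a doublet caller, marked 2.06% to 6.54% of the embryonic members, 7.28% of the P3 members over both wells and 2.79% to 4.42% of low-Nppa barcodes. At E16.5 it marked 6.43% and 6.54% of the members against 3.71% and 2.79% of low-Nppa barcodes, and at P3 7.28% against 3.34%. At E12.5 and E14.5 neither group was the higher one in both libraries of a stage.

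The other markers of the label, which the selection did not use, were higher in the members of every embryonic library. They were proposed together with the label from these data, so their high-minus-low values are given as a description. They stayed in the fits across all genes and in the counts of the lists below, where their calls are no independent evidence. Gja5, the atrial and conduction connexin, stood at 83.7, 93.1, 95.5, 74.0, 49.9 and 49.2 CPM in the members of the 6 embryonic libraries, in order of stage and replicate. In low-Nppa barcodes it stood at 16.51, 16.02, 15.9, 14.6, 7.17 and 7.76 CPM. The groups did not overlap, and the fitted log2 difference over the 3 stages was 2.54 ± 0.05 (standard error, n = 6 libraries).

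Slit2, a secreted guidance ligand, stood at 191, 256, 128, 132, 39.0 and 53.6 CPM in the members and at 34.1, 40.6, 17.9, 14.3, 5.44 and 4.34 CPM in low-Nppa barcodes. It was higher in the members of each library, but its level fell with age in both groups, so that the E16.5 members overlapped the E12.5 low-Nppa barcodes. Bmp10, the ligand that sustains trabecular growth, stood at 92.3, 127, 66.6, 78.4, 64.5 and 91.2 CPM in the members and at 10.7, 12.6, 3.52, 3.94, 7.74 and 8.29 CPM in low-Nppa barcodes, without overlap. The log2 differences were 2.899 ± 0.05 for Slit2 and 3.56 ± 0.05 for Bmp10.

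**Figure D2:**
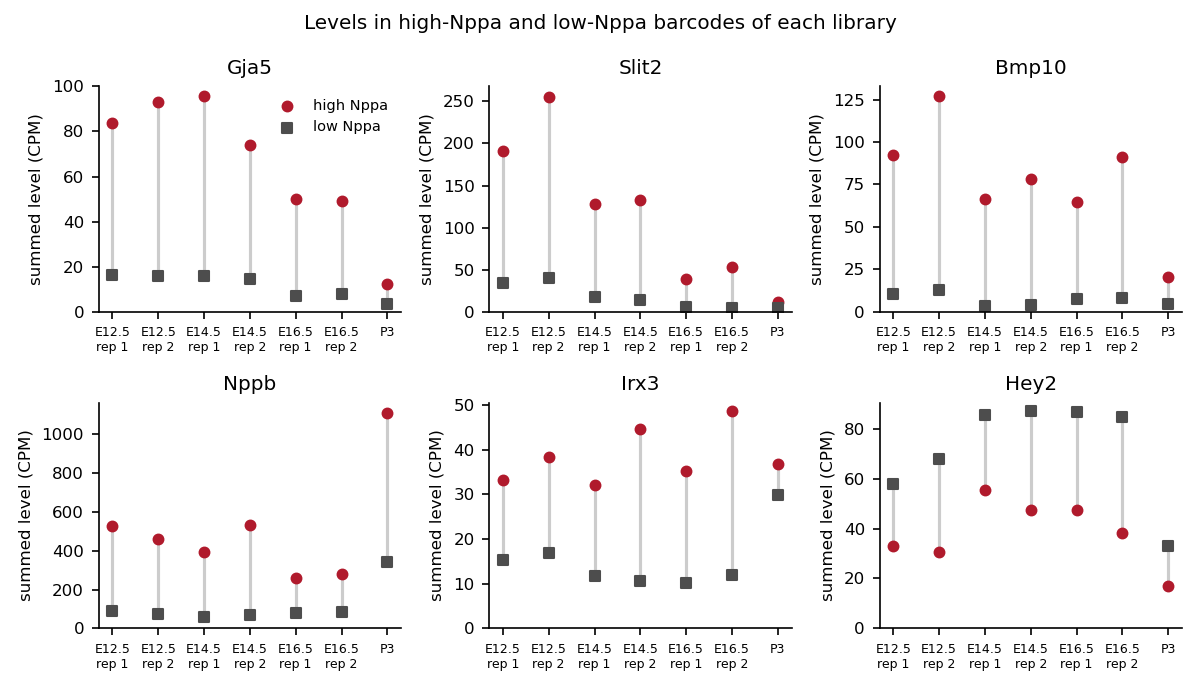
Summed level in CPM (y axes) of 6 genes in high-Nppa (red circles) and low-Nppa (grey squares) barcodes of each library (x axes), with a line joining the pair of one library. Gja5, Slit2, Bmp10, Nppb and Irx3 are higher in the members of all 7 matrices and Hey2 is lower in all 7, and in the members Gja5 and Slit2 are lowest in P3. P3 is drawn over both wells.

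Trabecular genes were also counted per barcode after each was thinned to 8000 UMIs, which left out shallower barcodes (18 to 79 members per embryonic library). Gja5, Slit2 and Bmp10 were proposed with the label from these data, and Irx3 is from a list written with earlier results known. The shares are therefore a description and no check of the label. At least 2 of Gja5, Slit2, Bmp10 and Irx3 were seen in 50.5% and 62.4% of the E12.5 members, 42.8% and 38.2% of the E14.5 members and 29.5% and 33.5% of the E16.5 members. The same held for 2.83% to 9.85% of low-Nppa barcodes and for 0.397% to 1.37% of barcodes with Tnnt2 under 300 CPM in those libraries, whose median depth before thinning was 10077.5 to 17431.5 UMIs. Among barcodes with at least 1000 CPM Nppa but Myl2 below the gate, it held for at most 17.6% in the E12.5 libraries, for 25.3% and 32.8% in the E14.5 libraries and for 27.4% and 29.6% in the E16.5 libraries, the last close to the members' shares. None of the 4 genes was seen in 16.4% to 47.0% of the embryonic members. Without thinning, Gja5 had a UMI in 75.0%, 71.6%, 57.9%, 41.2%, 42.1% and 40.5% of the members, in order of stage and replicate. In low-Nppa barcodes of the same libraries it was 23.1%, 22.3%, 16.1%, 12.6%, 9.28% and 8.10%.

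At P3 at least 2 of the 4 genes were seen in 5.78% of the 935 thinned members of well 1 and in 11.3% of the 151 of well 2. The same held for 1.32% and 3.08% of low-Nppa barcodes and for 34.2% and 50.1% of the Nppa-high barcodes with little Myl2. In well 1 the members carried Gja5 at 10.37 CPM, Slit2 at 11.4 CPM and Bmp10 at 14.53 CPM, against 2.65, 3.91 and 3.66 CPM in low-Nppa barcodes. In well 2 they carried 31.1, 12.1 and 86.9 CPM against 5.41, 5.81 and 6.96 CPM, so Gja5 and Bmp10 differed between the wells more than Slit2 did. The P3 cells are named here by their rule, high-Nppa ventricular-gate cells.

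Within the members, the markers went with the amount of Nppa. Barcodes were placed in bands of 1000 to 3000, 3000 to 10000 and at least 10000 CPM of Nppa. Gja5 rose from band to band in 6 of 6 embryonic libraries, from 27.8 to 75.8 CPM in the lowest band to 71.5 to 187 CPM in the highest. Bmp10 also rose in 6 of 6, from 34.1 to 79.4 CPM to 131 to 218 CPM. Slit2 and Sema3a rose in 5 of 6 and were higher in the top than in the bottom band in all 6. Irx3 rose from band to band in 4 of 6. Nppb did so in 3 of 6, and in E16.5 replicate 1 its top band was below its bottom band. Hey2, a repressor of the trabecular programme in the compact layer, fell in 6 of 6, from 43.5 to 62.5 CPM to 8.51 to 24.3 CPM. The proliferation marker Mki67 was lower in the top than in the bottom band in all 6, at 27.5 to 59.6 CPM against 52.6 to 83.1 CPM. Of the atrial genes, Myl4 rose in 6 of 6 and Myl7 in 5 of 6. Sln rose from band to band in 2 of 6, fell in 1 and was higher in the top than in the bottom band in 3. In E16.5 replicate 1 it went from 14.9 to 181 to 785 CPM, and in E14.5 replicate 1 from 16.9 to 49.0 to 6.81 CPM. Their part in the marker levels of the bands was not tested, and no test was made within the bands.

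**Figure D3:**
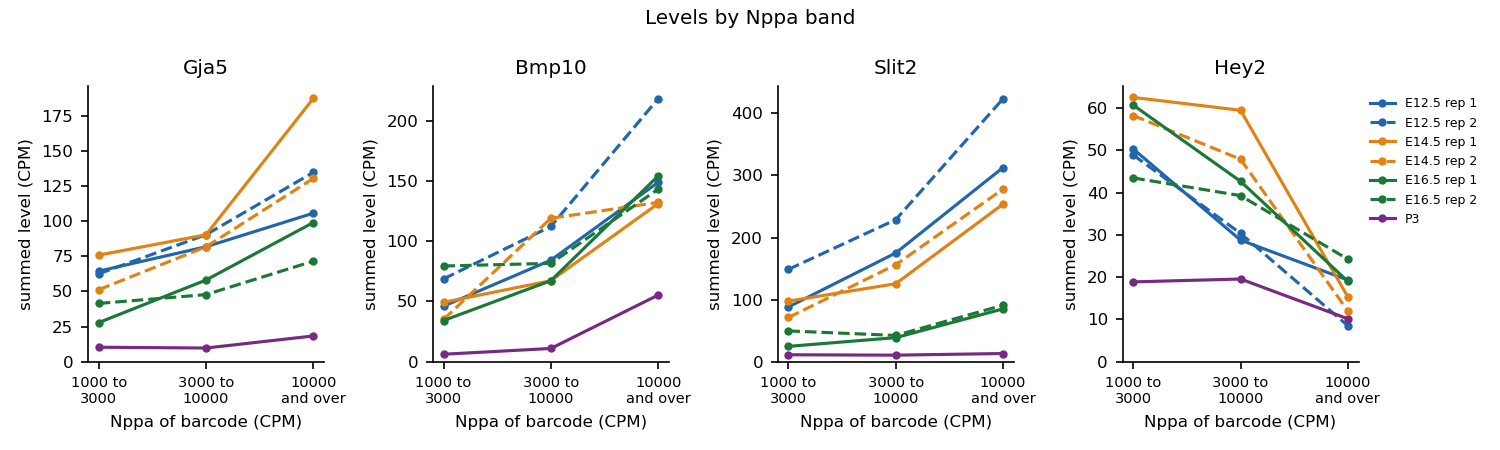
Summed level in CPM (y axes) of Gja5, Bmp10, Slit2 and Hey2 in members grouped by their own Nppa (x axes, CPM), with one line per library. P3 is drawn over both wells. Gja5 and Bmp10 rise and Hey2 falls over the bands in each of the 6 embryonic libraries, and Slit2 rises in 5 of them.

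The difference between high-Nppa and low-Nppa barcodes was then fitted across 13178 genes by edgeR's quasi-likelihood test on UMI sums per library and gate, with the library as a block and Benjamini-Hochberg adjustment over all genes. Nppa, Myl2 and Tnnt2 were left out. Over the mean of the 3 embryonic stages, 2469 genes (18.7% of those tested) were higher and 2634 (20%) were lower in the members at an adjusted p under 0.05. Since both gates come from one library, small differences pass, and 258 of the higher and 168 of the lower genes differed by at least 1 on the log2 scale. Under the mitochondrial limit of the study, 1463 were higher and 1514 lower. The median over all genes was -0.01, so lists are read against these shares and that median.

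Of the 12 genes listed as trabecular, 12 were higher and 0 lower, with a median log2 difference of 1.68. The list was written with earlier results of these data known, so the count is not independent evidence. Nppb, the second natriuretic peptide, rose from 58.1 to 91.4 CPM in low-Nppa barcodes to 260 to 534 CPM in the members, a log2 difference of 2.37 ± 0.03 (adjusted p = 1.6e-56). Sema3a, a secreted guidance factor that limits cardiac innervation, rose by 2.44 ± 0.09 (adjusted p = 1.3e-30). Cited1, a transcriptional co-regulator, rose by 1.61 ± 0.02 (adjusted p = 9.8e-52). The smallest differences were those of Cpne5, at 0.78 ± 0.10, and of the ventricular connexin gene Gja1, at 0.68 ± 0.03. Each of the 12 was higher in the members of all 6 libraries.

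The conduction list overlaps the trabecular one, among others in Gja5, Irx3, Etv1, Tbx5, Cpne5 and Sema3a. Of its 17 tested genes, 11 were higher and 4 lower, with a median log2 difference of 1.03. Cacna2d2, a calcium channel subunit, rose by 2.08 ± 0.08 and Ephb3, an ephrin receptor, by 1.21 ± 0.07. Scn10a rose by 2.99 ± 0.32 but at only 0.99 to 3.53 CPM in the members. Kcne1, Id2, Tbx3 and Cacna1g fell, with Kcne1 at -0.87 ± 0.03 and Id2, an inhibitor of helix-loop-helix factors needed for the conduction system, at -0.74 ± 0.04. Cntn2, a marker of mature Purkinje cells, had too few UMIs to be tested.

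The Iroquois factors Irx1, Irx2, Irx3 and Irx5 rose together. Irx5, a repressor that shapes the ventricular gradient of repolarization, rose from 5.51 to 8.03 CPM in low-Nppa barcodes to 19.0 to 38.9 CPM in the members (log2 difference 1.99 ± 0.07, adjusted p = 7.7e-33). Irx2 rose by 1.80 ± 0.06, Irx3 by 1.58 ± 0.06 and Irx1 by 1.48 ± 0.07. Irx4, the pan-ventricular member of the family, differed by only 0.13 ± 0.04, and Irx6 was at most 0.16 CPM in the members. Of the 22 chamber transcription factors, 10 were higher and 5 lower. Hand1, a left-ventricular factor, rose by 1.29 ± 0.07 and Tbx5 by 1.04 ± 0.05. Gata6 fell by 0.40 ± 0.03 on the log2 scale and Hand2 fell by 0.50 ± 0.04. Gata4, at -0.03 ± 0.03, and Nkx2-5, at -0.04 ± 0.03, did not pass the threshold.

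Genes of the compact layer went the other way in part. Of the 6 listed, Hey2, Mycn and Tbx20 were lower, Ccnd1 and Ccnd2 were higher and Prdm16 did not pass. Hey2 stood at 33.0, 30.7, 55.4, 47.4, 47.7 and 38.4 CPM in the members and at 57.7, 68.1, 85.7, 87.1, 86.8 and 84.6 CPM in low-Nppa barcodes. The groups did not overlap, and the log2 difference was -0.92 ± 0.04 (adjusted p = 2e-26). Mycn, a driver of cardiomyocyte growth, fell by 0.76 ± 0.06 on the log2 scale, and Tbx20 fell by 0.32 ± 0.03.

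By the fixed rule, the 12 genes with the largest rise were Bmp10, Lyz2, Slit2, Gja5, Slc16a12, Sema3a, Slc6a6, Nppb, Gtsf1, Gm15543, Cacna2d2 and Mest. Lyz2, lysozyme, rose by 3.01 ± 0.08 (adjusted p = 2.8e-40) and stood at 30.6 to 111 CPM in the members against 1.42 to 26.9 CPM in low-Nppa barcodes. The other macrophage markers, C1qa, C1qb, C1qc, Fcer1g, Tyrobp and Csf1r, were at most 7.17 CPM in the members of any embryonic library. Over the stages C1qb and Fcer1g fell, while at E16.5 C1qa, C1qc and Csf1r rose, with higher levels in replicate 1 than in replicate 2 (C1qc 7.17 against 0.21 CPM), and their part in the Lyz2 result was not tested. Slc6a6, the taurine transporter, rose by 2.42 ± 0.04. Gtsf1, which acts in the piRNA pathway of germ cells, rose by 2.31 ± 0.04. Slc16a12, a creatine transporter, rose by 2.47 ± 0.10. Mest, a paternally expressed imprinted gene, was the most abundant of these and rose by 2.03 ± 0.02, from 189 to 788 CPM in low-Nppa barcodes to 642 to 3664 CPM in the members.

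The genes with the largest fall included Rspo3, Tnnt1, Slitrk5, Efna5, Tnni2, Mt2, D030056L22Rik, Ppp1r1b, Hey2, Flrt2 and Kcne1. Rspo3, a secreted enhancer of Wnt signalling, stood at 2.43, 4.65, 10.52, 10.42, 1.49 and 0.62 CPM in the members and at 69.0, 76.1, 32.0, 32.6, 6.79 and 4.63 CPM in low-Nppa barcodes. It was lower in the members of each library, and its log2 difference was -2.80 ± 0.10 (adjusted p = 3.1e-32). Tnnt1 and Tnni2, the slow skeletal troponin T and the fast skeletal troponin I, fell by 1.76 ± 0.03 and 1.03 ± 0.07. Metallothionein Mt2 fell by 1.00 ± 0.07, and the adhesion genes Flrt2 and Slitrk5 fell by 0.91 ± 0.07 and 1.48 ± 0.08.

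**Figure D4:**
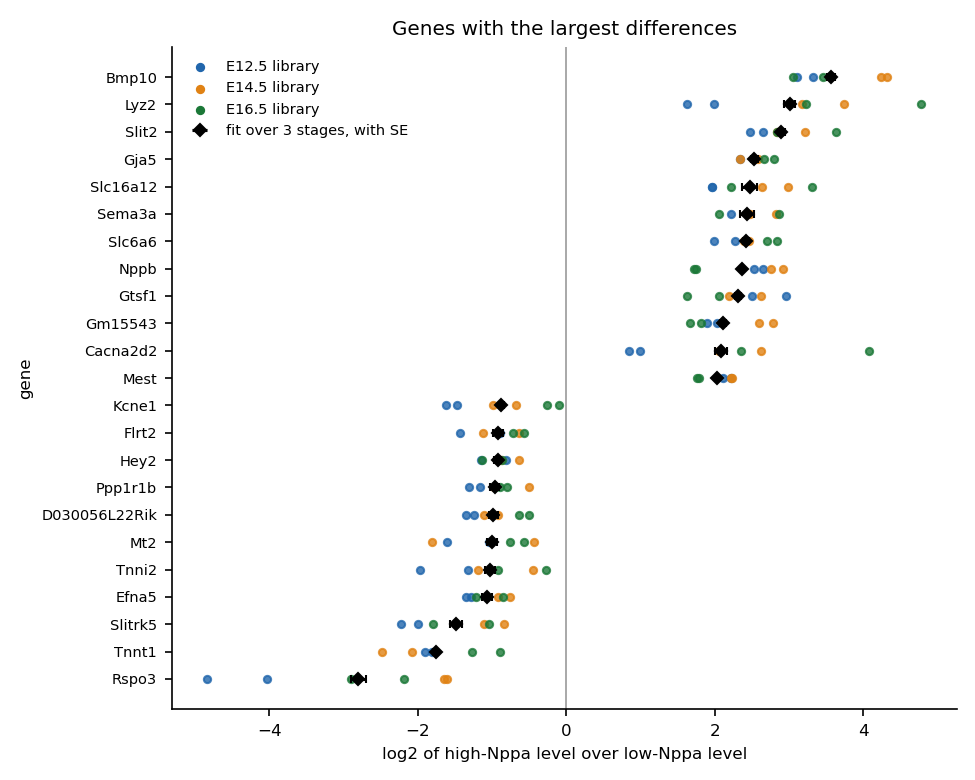
Log2 ratio of the high-Nppa to the low-Nppa level (x axis) for the 12 genes with the largest rise and 11 of those with the largest fall (y axis), with one dot per embryonic library and a black diamond with its standard error for the fit over 3 stages. Fitted values run from 3.56 for Bmp10 to -2.80 for Rspo3, and the E12.5 and E16.5 dots lie far apart for Lyz2, Cacna2d2 and Rspo3.

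Cell cycle genes were lower by a small amount. Of 28 listed, 21 were lower and 3 higher, with a median log2 difference of -0.31. The mitotic cyclins Ccnb1 and Ccnb2 fell by 0.57 ± 0.04 and 0.67 ± 0.04, the chromosome passenger gene Birc5 fell by 0.49 ± 0.03 and Top2a fell by 0.38 ± 0.03. Mki67 fell by 0.30 ± 0.04, from 66.8 to 83.7 CPM in low-Nppa barcodes to 51.5 to 66.8 CPM in the members. The 3 that rose were the D-type cyclins, with Ccnd2 at 0.29 ± 0.03, Ccnd1 at 0.28 ± 0.05 and Ccnd3 at 0.07 ± 0.03. Under the mitochondrial limit of the study, 15 were lower and 2 higher, with a median of -0.17. Among the inhibitors, 3 of 8 rose and 3 fell, with Cdkn1c (p57) at 0.25 ± 0.03 and Cdkn2d at -0.28 ± 0.04.

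Of 26 sarcomere genes, 18 were higher and 5 lower, with a median of 0.16. Myl4, the embryonic light chain, rose by 0.71 ± 0.02, Tpm2 by 0.65 ± 0.04, the stretch-responsive gene Ankrd1 by 0.45 ± 0.02 and Myh6 by 0.45 ± 0.03. Smooth muscle actin Acta2 fell by 0.55 ± 0.02. Of 30 channel, gap junction and calcium genes, 16 were higher and 4 lower. Casq2, the calcium store protein of cardiac sarcoplasmic reticulum, rose by 1.29 ± 0.03 and Kcnj3 and Kcnj5, the subunits of the acetylcholine-gated potassium channel, by 1.33 ± 0.10 and 0.69 ± 0.07. Atp2a2, at -0.06 ± 0.02, and Pln, at 0.04 ± 0.02, which set calcium uptake, did not pass.

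In the neuregulin, Bmp and Notch list, 9 of 31 tested genes were higher and 11 lower, with a median of -0.04. Bmp2 and Bmp4 fell by 1.31 ± 0.15 and 2.04 ± 0.20, beside the rise of Bmp10. The versican gene Vcan, a matrix component of trabeculae, rose by 0.76 ± 0.03, and the repulsive ligand gene Slit3 rose by 1.26 ± 0.22 at no more than 4.49 CPM. The neuregulin receptor genes Erbb2 and Erbb4 differed by 0.14 ± 0.05 and -0.31 ± 0.08. Of 11 immediate early and heat shock genes, 8 were higher and 1 lower, with a median of 0.18. Egr1 rose by 0.49 ± 0.03 and Atf3 by 0.51 ± 0.05, and their part in the other results was not tested.

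The stages were compared in the same fit. Genes that passed in either direction made up 39.3% of those tested for E12.5, 17.4% for E14.5 and 14% for E16.5, which are 5180, 2299 and 1845 genes. The stages were not matched in depth. The 930 E12.5 members summed to 11133242 UMIs (replicate 1) and 12471039 (replicate 2). For the 490 E14.5 members these sums were 4657707 and 3647695, and for the 617 E16.5 members 6693498 and 4813255. How far this unequal depth shaped the gene counts was not tested. Under the mitochondrial limit of the study the counts were 2101, 990 and 1281, so E16.5 then exceeded E14.5. Without E12.5 replicate 2 the E12.5 count was 2955, without E14.5 replicate 1 or 2 that of E14.5 was 1040 or 1181, and without E16.5 replicate 2 that of E16.5 was 829. The high-minus-low difference at E16.5 exceeded that at E12.5 for 963 genes (7.31%) and was below it for 878 (6.66%). Together these 1841 genes became 620 under the mitochondrial limit, 1121 without E12.5 replicate 2 and 1224 without E16.5 replicate 1. Of the trabecular list, the difference was larger at E16.5 for 4 genes, Slit2, Irx3, Cpne5 and Etv1, smaller for 4, Nppb, Cited1, Tbx5 and Gja1, and not called for the others. Gja5, Bmp10 and Sema3a did not pass, with stage differences of 0.25, -0.02 and 0.03. Gja1 went from 1.19 at E12.5 to 0.09 at E16.5, and Nppb from 2.58 to 1.69. All these are log2 differences. Of the 17 tested genes of the conduction list, 9 were higher and 5 lower at E12.5, and 11 were higher and 1 lower at E16.5. Their stage difference passed above 0 for 10 and below 0 for 1.

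Metabolic genes shifted between the stages. At E12.5, 15 of 22 glycolysis genes were lower in the members and 4 higher, with a median of -0.44. At E16.5, 5 were lower and 3 higher, with a median of 0.04, and 14 of 22 had a stage difference above 0 that passed the test. Slc2a1, the basal glucose transporter, went from -1.38 at E12.5 to 0.07 at E16.5, and Ldha, lactate dehydrogenase A, from -0.73 to 0.09. Tpi1, a mid-pathway enzyme, went from -0.78 to -0.04. Fatty acid genes ran the other way. At E12.5, 13 of 18 were higher and 2 lower, with a median of 0.41. At E16.5, 2 were higher and 7 lower, with a median of -0.15, and 11 had a stage difference below 0. Acadvl, which starts the oxidation of very long chains, went from 0.90 to -0.14 and the lipoprotein lipase gene Lpl from 0.73 to 0.14. Under the mitochondrial limit of the study, 13 glycolysis genes still had a stage difference above 0 and 8 fatty acid genes one below 0.

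**Figure D5:**
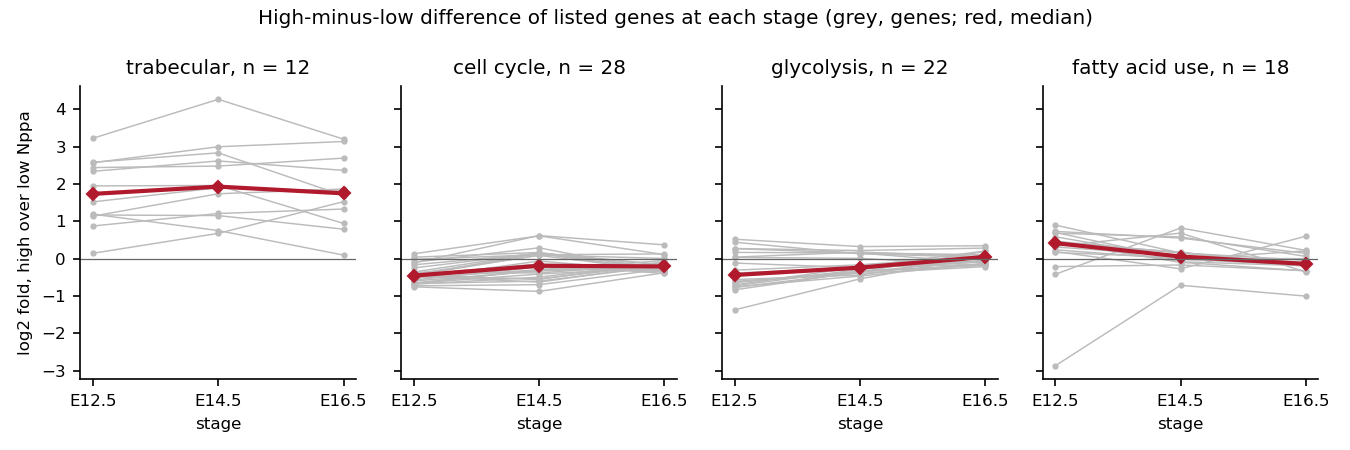
Log2 difference between high-Nppa and low-Nppa barcodes (y axis) at each embryonic stage (x axes) for the tested genes of 4 lists, with grey lines for genes and red diamonds for the list median. The trabecular median stays above 1.5 at each stage, while the glycolysis median goes from -0.44 to 0.04 and the fatty acid median from 0.41 to -0.15.

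The genes whose signed high-minus-low difference rose most from E12.5 to E16.5, most of them from below 0 towards or past 0, included Cox4i2, Ndufa4l2, Sln, Col2a1, Egln3, H2-Ab1 and Sema3c. Cox4i2 and Ndufa4l2, oxygen-regulated variants of respiratory chain subunits, and Egln3, an oxygen-sensing hydroxylase, were low in the E12.5 members. Cox4i2 stood at 2.61 and 4.33 CPM in the E12.5 members against 52.5 and 51.4 CPM in low-Nppa barcodes. At E16.5 it stood at 7.62 and 15.2 against 3.08 and 3.45 CPM, so the order turned (stage difference 5.58, adjusted p = 1.6e-23). Ndufa4l2 went from 0.81 and 0.80 against 26.4 and 28.7 CPM to 9.26 and 22.4 against 11.9 and 10.1 CPM, with the E16.5 libraries on opposite sides. Mural markers were also high in the E16.5 replicate 2 members, summing to 19.9 against 3.73 CPM, and low in those of replicate 1 (2.09 against 4.66 CPM), and their part in the values of Cox4i2 and Ndufa4l2 was not tested. Egln3 went from 0.72 and 1.28 against 6.67 and 7.76 CPM to 26.3 and 27.0 against 26.0 and 27.1 CPM. The genes whose signed difference fell most included Hbb-y, Ckmt2, Asb11, Cox8b, Mypn, Igfbpl1 and Ptgds. Ckmt2, the mitochondrial creatine kinase of muscle, stood at 7.64 and 10.3 CPM in the E12.5 members against 1.35 and 1.25 CPM. At E16.5 it stood at 44.8 and 44.5 against 28.9 and 30.3 CPM. Cox8b, a heart and muscle subunit of cytochrome oxidase, was higher in the members at E12.5 (105 and 218 against 37.9 and 62.5 CPM) and lower at E16.5 (850 and 851 against 974 and 1006 CPM). Mypn, a Z-disc protein gene, went from 1.67 to 0.02 on the log2 scale.

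A high level of the atrial marker Sln was found in part of the E16.5 members. Sln, sarcolipin, an atrial regulator of calcium uptake, stood at 193 and 100 CPM in the E16.5 members against 18.3 and 15.3 CPM in low-Nppa barcodes. In the E12.5 and E14.5 members it stood between 5.61 and 28.1 CPM, within reach of the 9.96 to 23.4 CPM of low-Nppa barcodes. Sln reached 1000 CPM in 5.47% and 3.27% of the E16.5 members and in 4.08% and 9.20% of the members of the P3 wells. It did so in at most 0.810% of the members at E12.5 and E14.5. Most E12.5 Nppa-high barcodes with little Myl2 also stayed under this limit, 98 of 104 (replicate 1) and 92 of 102 (replicate 2). So did 68 of 102 and 55 of 76 such barcodes from E14.5, but only 20 of 185 and 29 of 199 from E16.5. The low shares among the earlier members therefore cannot show how many atrial-type cells they held, which was not tested. Of 9 atrial markers, 8 were higher in the E16.5 members, and 7 over the 3 stages. Without barcodes of at least 1000 CPM Sln, 4 were higher at E16.5 and 3 over the stages. Mybphl then went from 2.55 to -0.40 at E16.5, Nr2f1 from 1.41 to -0.10 and Nr2f2 from 0.83 to -0.18, none of which passed any more. Myl7, at 0.88 ± 0.04, Myl4, at 1.15 ± 0.03, Stard10 and Angpt1 remained higher at E16.5. Without these barcodes the label markers stood at 2.53 for Gja5, 2.91 for Slit2 and 3.54 for Bmp10 over the stages. The Sln limit removed only 1, 2, 2, 0, 17 and 10 members, in order of stage and replicate. Means over the stages could therefore move little, and they cannot show the part of such barcodes at E16.5.

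The summed levels of markers of other cells in the members of the 6 embryonic libraries, with calls over the 3 stages, were as follows. Endothelial markers summed to 14.8 to 48.4 CPM in the members, 29.5 to 48.9 CPM in low-Nppa barcodes and 975 to 1110 CPM in barcodes with Tnnt2 under 300 CPM, and 7 of 8 were lower in the members. Mesenchymal markers summed to 41.9 to 217 CPM against 55.0 to 145 CPM, with 4 of 7 higher. Epicardial markers summed to 4.18 to 11.9 CPM against 3.36 to 10.3 CPM, with 1 of 3 higher, and mural markers to 0.86 to 19.9 CPM against 2.12 to 4.66 CPM, with 0 of 2 called over the stages and 1 of 2, Rgs5, higher at E16.5. Rgs5, a pericyte gene, was at 0.90 and 14.75 CPM in the E16.5 members against 2.90 and 2.18 CPM, so its call there (1.29 ± 0.34, adjusted p = 0.0058 by the edgeR fit) was carried by replicate 2. Macrophage markers summed to 42.0 to 113 CPM against 8.05 to 28.7 CPM, most of it Lyz2, and 4 of 7 were higher at E16.5 while 4 were lower at E14.5. Erythroid markers summed to 2182.02 to 7113 CPM against 2729 to 6863 CPM, with 5 of 8 higher and 1 lower, but the libraries ran in both directions. The members had 7113 against 3687 CPM in E12.5 replicate 2 and 6756 against 3408 CPM in E14.5 replicate 2, and 2182.02 against 2729 CPM in E12.5 replicate 1 and 3408 against 4427 CPM in E16.5 replicate 1.

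In the P3 wells these sums differed. Erythroid markers summed to 1191 CPM in the members against 596 CPM in well 1, and to 760 against 1737 CPM in well 2, so the order turned. Endothelial markers turned as well, at 39.9 against 32.8 CPM in well 1 and 25.6 against 45.5 CPM in well 2. Mesenchymal markers stood at 149 against 175 CPM and at 184 against 407 CPM, and macrophage markers at 15.4 against 27.9 CPM and at 27.6 against 34.5 CPM. Mural markers stood at 11.3 against 12.6 CPM in well 1 and at 58.3 against 29.5 CPM in well 2.

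The 2037 embryonic members were set against 768 embryonic barcodes that passed the same Tnnt2 and Nppa limits with Myl2 under 1000 CPM. The Nppa levels of the 2 groups were not matched. Of 11101 genes, 2196 (19.8%) were higher and 1965 (17.7%) lower in the members over the embryonic stages. Of the 9 atrial markers, 9 were lower and 0 higher, with a median log2 difference of -4.05, and Sln averaged 57.5 CPM against 1947 CPM. Irx4 (7.99 ± 0.25), Hand1 (6.65 ± 0.27) and Hey2 (5.87 ± 0.21) were higher, as was Myh7, the slow myosin heavy chain of ventricle, at 5.41 ± 0.06. Irx2 averaged 31.6 CPM in the members and was listed at 0 in the Myl2-low barcodes of all 6 libraries. Slit2 was higher in the members by 3.14 ± 0.08, while Gja5 was lower, at -0.49 ± 0.06, and Bmp10 did not pass, at 0.04 ± 0.08.

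Within the members, E16.5 was compared with E12.5. Of 11205 genes, 2048 (18.3%) were higher and 1717 (15.3%) lower at E16.5, by an edgeR fit that held all 6 embryonic libraries. The low-Nppa barcodes were not tested between these stages, so the changes below are not shown to be particular to the members. Of the 12 trabecular genes, 7 fell and 2 rose. Slit2 fell by 2.15 ± 0.13, Sema3a fell by 1.47 ± 0.16 and Gja5 fell by 0.70 ± 0.11 on the log2 scale, while Irx3 did not pass, at 0.35 ± 0.14. By the levels given above, Slit2 and Gja5 also fell between these stages in low-Nppa barcodes. Of 17 tested fatty acid genes, 14 rose and 2 fell, with a median of 0.89, and of 22 glycolysis genes, 12 rose and 1 fell, with a median of 0.31. Ckm, the muscle creatine kinase, went from 34.6 and 35.8 CPM to 2189 and 2279 CPM (6.12 ± 0.13, adjusted p = 6.8e-18). Ptgds, the prostaglandin D2 synthase, went from 3.14 and 1.12 CPM to 304 and 286 CPM (7.27 ± 0.20, adjusted p = 6.6e-16). Egln3, Pde1c, Mgp, Gipr, Dhrs7c and Sln completed the 8 largest rises, with log2 differences between 4.27 and 4.83. Of 6 tested mesenchymal markers, 5 were higher at E16.5 and 0 lower, with a median of 1.74. Of 8 endothelial markers, 5 were lower and 0 higher. Their part in these changes was not tested.

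The 8 largest falls were Hbb-bh1, Hbb-y, Hba-x, Wdr93, Hmga2, Tagln, Mdk and Cdkn1c. Hbb-bh1, Hbb-y and Hba-x are embryonic globins of red cells, and Hbb-y stood at 1176 and 3145 CPM at E12.5 and at 0.60 and 0 CPM at E16.5. Hmga2, a chromatin protein of growing embryonic tissue, went from 70.2 and 69.6 CPM to 5.38 and 4.36 CPM (-3.68 ± 0.15). Cdkn1c went from 866 and 795 CPM to 95.5 and 107 CPM (-2.91 ± 0.12). Mdk, the growth factor midkine, fell by 3.17 ± 0.12 on the log2 scale and Tagln, a smooth muscle actin-binding protein, fell by 3.41 ± 0.17.

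At P3 the members and low-Nppa barcodes were compared within each well, without a test and with 95% intervals for counting error only. Well 1 held 980 of the 1154 members and well 2 the other 174. Nppb stood at 1131 against 398 CPM in well 1, 2.84-fold higher (2.79 to 2.90), and at 915 against 245 CPM in well 2, 3.74-fold higher (3.54 to 3.95). Bmp10 stood at 14.53 against 3.66 CPM in well 1, 3.97-fold higher (3.23 to 4.91), and at 86.9 against 6.96 CPM in well 2, 12.49-fold higher (9.93 to 15.7). Its level in the members thus differed more between the wells than that of Nppb.

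Gja5 was 3.91-fold higher (3.06 to 5.02) in well 1 and 5.76-fold (4.15 to 7.94) in well 2, and Slit2 was 2.905-fold (2.35 to 3.60) and 2.08-fold (1.28 to 3.24). Irx5 was 2.29-fold higher (2.02 to 2.60) and 1.69-fold (1.24 to 2.27), and Irx3 was 1.37-fold (1.24 to 1.51) and 1.19-fold (0.94 to 1.49). Hey2 was lower in both, at 0.62-fold (0.55 to 0.71) and 0.59-fold (0.44 to 0.77). Of 12445 genes with more than 3 UMIs in both groups of well 1, 2.62% were at least 2-fold higher and 0.82% at least 2-fold lower. In well 2 it was 3.02% and 1.15% of 10525 genes. Of the 12 trabecular genes, 6 were at least 2-fold higher in well 1 and 5 in well 2.

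The P3 members also carried more of the atrial markers. Of the 8 with enough UMIs, 5 were at least 2-fold higher in well 1 and 7 in well 2. Sln was 5.54-fold higher (5.17 to 5.94) in well 1 and 14.2-fold (12.8 to 15.8) in well 2, Myl7 was 3.19-fold and 7.72-fold higher, and Myl4 was 3.32-fold and 6.16-fold higher. In the rising Nppa bands Sln stood at 47.8, 64.7 and 453 CPM in well 1 and at 58.4, 406 and 1633 CPM in well 2. Of the sarcomere list, Acta1, skeletal actin, was 6.30-fold higher (5.83 to 6.82) in well 1 and 2.88-fold (2.53 to 3.27) in well 2, Myh7 was 1.496-fold and 1.71-fold higher and Ankrd1 was 1.87-fold and 2.48-fold higher. Lyz2 was 0.90-fold (0.71 to 1.15) in well 1 and 0.91-fold (0.44 to 1.69) in well 2. Mki67 was 1.15-fold (0.95 to 1.39) and 0.81-fold (0.57 to 1.10). For Lyz2 and Mki67 the intervals of either well included 1. Of the 28 cell cycle genes, 7 were at least 2-fold higher in the members of well 1, against 2.62% of all genes there, and 0 in well 2, and 0 were at least 2-fold lower in either. Among the 7, Aurka and Aurkb rested on few UMIs, at 32 against 25 and at 24 against 20. Mcm5, a replication helicase subunit, was 2.40-fold (1.90 to 3.03) in well 1 and 0.79-fold (0.52 to 1.15) in well 2, and Cdk1, the mitotic kinase, was 2.095-fold (1.70 to 2.59) and 1.03-fold (0.81 to 1.29).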

How the data were processed

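Single-cell RNA of dissociated mouse hearts was sequenced, and the authors deposited counts of UMIs per gene and barcode from Cell Ranger (2.1.1 in the submitters' processing notes, 3.0.0 or 3.1.0 in the file headers). The deposited counts are unfiltered except at P3. The 7 heart matrices were read, barcodes were filtered as described, and UMIs were summed per library and gate. The sums were tested with edgeR 4.0.16 (quasi-likelihood, TMM, filterByExpr) in R 4.3.3, with library as a block, over 6 libraries. Pairing comes from the library itself, since both gates are cells of one library. Genes named are those of the lists and, by rule, the largest rises and falls at a mean of at least 20 CPM that went one way in all 6 libraries (for the stage comparisons, with both libraries of one stage above both of the other), and a few genes that met the rule are not reported here. Members and lists were chosen with earlier results of these data known. Doublets were marked with Scrublet (scanpy 1.11.5) and kept. In a simulation, the spread was set by hand and not taken from these libraries, and only genes above 20 CPM were changed. On those simulated data, 100% of 100 genes changed by 1 on the log2 scale were recovered among 13251 genes, with 5.21% false calls. These rates do not carry over to the calls made here, some of which are at a few CPM. Alternatives covered DESeq2 1.42.0, thinning, filters, gates and left-out libraries. Total UMIs per heart matrix were 67141166 to 158627277, and intervals cover counting error only.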

Additional observations from a re-analysis of the deposited data

Results flagged for a closer look

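The high-minus-low difference was not the same at E16.5 and E12.5 for many of the named genes, by the edgeR test of the stage difference itself. Values are E16.5 minus E12.5 on the log2 scale. Among genes that rose in the members it was 0.57 for Slit2, 1.92 for Lyz2, 0.72 for Slc16a12, 0.57 for Slc6a6 and 2.04 for Cacna2d2. It was -0.90 for Nppb, -0.94 for Gtsf1, -0.28 for Gm15543 and -0.44 for Mest. Among genes that fell it was 1.93 for Rspo3, 0.72 for Tnnt1, 0.78 for Slitrk5, 0.97 for Tnni2, 0.56 for Mt2, 0.70 for D030056L22Rik and 1.33 for Kcne1, so these were less reduced at E16.5. The largest increases were 5.58 for Cox4i2, 5.47 for Ndufa4l2, 3.66 for Sln, 3.21 for Col2a1, 2.79 for Egln3, 2.77 for H2-Ab1 and 2.56 for Sema3c. The largest decreases were -4.93 for Hbb-y, -2.25 for Ckmt2, -1.93 for Asb11, -1.91 for Cox8b, -1.65 for Mypn, -1.56 for Igfbpl1 and -1.33 for Ptgds.

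In libraries outside the comparisons, from earlier embryos, the same limits were passed by 19 of 54 gate barcodes in E8.5 replicate 2 and by 4 of 36 and 5 of 41 in the E10.5 libraries. No explanation was tested for these values.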

How the results depend on the processing

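The replicate block is the library. Without it, 1157 genes passed at E14.5, 786 at E16.5 and 635 in the stage difference. With DESeq2, 1348 genes were higher and 1422 lower over the stages, 2209 passed at E12.5, 1029 at E14.5, 703 at E16.5, 671 in the stage difference, 2176 within the members and 2074 against Myl2-low cells. With barcodes thinned to 2000 UMIs the counts were 634, 581, 1018, 354, 264, 301, 1020 and 844 in the same order, and the shares were 29.9%, 12.04%, 11.9% and, over both P3 wells, 26.8%. Under the mitochondrial limit of the study they were 1463 higher, 1514 lower, 2101 at E12.5, 990 at E14.5 and 620 in the stage difference, with shares of 17.7%, 8.58%, 10.1% and 30.4%, the last over both P3 wells. Without barcodes of high Sln, 2737 genes passed against Myl2-low cells. The E16.5 share was 9.55% with Myl2 at 5000 CPM and 9.47% without marked doublets, an alternative chosen after seeing the data, as was the mitochondrial limit for shares. Leaving out 1 library gave 2955 to 5341 genes at E12.5, 1040 to 2450 at E14.5, 829 to 2002 at E16.5, 1793 to 2175 higher and 2370 to 2502 lower over the stages, 2528 to 3663 within the members, 3390 to 3811 against Myl2-low cells and 1121 to 1737 in the stage difference. E12.5 replicate 2 gave the 2955 and 1121, E14.5 replicates 1 and 2 the 1040 and 1181, E16.5 replicate 2 the 829, and without E16.5 replicate 1 the stage difference had 1224. Fewer libraries or UMIs were tested there, and the cause of the other changes was not tested. Among genes that passed in the main or the alternative setting, directions turned for Acsl1 (-0.0354), Aurkb (0.0011), Bmp5 (0.0172), Irx4 (-0.0381) and Slc2a4 (-0.24) when thinned, for Bmpr2 (-0.016), Fos (-0.0146) and Slc2a4 (-0.0014) under the mitochondrial limit, for Acta1 (-0.0198, against 0.2879 without E14.5 replicate 2) without E14.5 replicate 1, and for Myl7 (-0.0056) and Sln (-0.43) without high Sln. Of the other values for single genes, 3637 kept the outcome of the test, 239 lost the call and 52 gained it. Genes that passed in neither setting count as kept even where their sign turned, as for Nr2f2 (0.18 to -0.18 without high Sln). Among the trabecular genes only Cpne5 lost its call over the stages, when thinned (0.30, adjusted p = 0.39, edgeR). The stage difference of the cell cycle list fell from 13 genes to 1 without the block and to 1 under the mitochondrial limit.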
